A study of Mus musculus with 29 samples.

Results

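The major urinary proteins are small lipocalins, secreted carriers with a barrel that holds hydrophobic ligands, which mouse liver makes in bulk and the kidney passes into urine. There they bind pheromones and act as scent signals. Their hepatic transcription in mice is known to be stronger in males and to depend on growth hormone pulses and STAT5. The genes form a tandem array on mouse chromosome 4, with a central block of nearly identical copies flanked by more divergent ones.

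The 9 genes described are Mup1, Mup3, Mup7, Mup11, Mup14, Mup15, Mup17, Mup20 and Mup21. They are 9 of the 48 rows with a Mup symbol among 38124 genes in the tables, taken as the rows whose Ensembl identifier maps to those symbols. Of the 48 rows 21 are numbered genes with annotated exons, and the other 27 are pseudogene rows with an exon length of 0. They were selected on their exon read levels in soy against control livers, where the fall of Mup transcripts was already known. That comparison is therefore a description: its values, estimates and counts are given with no p, and nothing is read from them.

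Liver and the muscle of the whole hindlimb were taken from 16 male mice of the inbred C57BL/6 strain, bought at 14 weeks, kept on chow and placed on their diets at 4 months. The soy, fish and lard groups received 60% of ad libitum intake (8.6 kcal daily) and are named for the fat in the diet. The control group received 95% (13.6 kcal daily), so in intake the comparison is of strong against slight restriction. In fish or lard against control the fat source may differ as well, and its part cannot be told apart from that of intake. Liver had 4 soy, 4 fish, 4 lard and 3 control libraries, and muscle had 3 soy, 3 fish, 4 lard and 4 control libraries, each from a different mouse within its tissue. All groups share sex, strain and age at the start, and no group fed freely is among the labels. By its title the series asks how far omega-3 fatty acids revert the expression profile of long-term calorie restriction.

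Library depth was 11315231 to 27106865 exon reads over 29 libraries. In all 39 pairs within a group, the counts differed by more than sampling noise (chi-square per degree of freedom at least 10.9). The soy livers of mice 1073 and 1159 stood apart, with 5.47% and 5.41% of gene reads outside exons against 7.90% to 8.92% in the other 13 livers. Erythroid markers summed to 1982 and 7658 CPM in the control muscles of mice 1071 and 1120, against 219 to 1082 CPM in the other 12 muscles. The 9 hepatocyte markers found in the tables, albumin and transthyretin among them, all had reads in every liver. Their summed level was 144647 to 164383 CPM (counts per 1000000 exon reads of the library) in soy, 118362 to 145783 in fish, 133468 to 155741 in lard and 105736 to 122733 in control livers. The liver marker sum thus lay higher in soy and lard than in control livers, while the Mup levels below lay lower. Skeletal muscle markers summed to 161.7 to 340.6 CPM in 14 of 15 livers and to 3184 CPM in fish liver 1123, with all 10 read in every liver, and their part in the Mup results was not tested. In bulk tissue, fewer cells of a type and less RNA per cell cannot be told apart.

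All 9 genes lie on the minus strand of chromosome 4 in GRCm38, each with 6 or 7 exons in its transcript. The numbered Mup rows span chr4:59956804-62150863. In order along the chromosome, the deposited tables place Mup7 (ENSMUSG00000073842) at chr4:60066469-60070475, Mup1 (ENSMUSG00000078683) at chr4:60498012-60501960 and Mup11 (ENSMUSG00000073834) at chr4:60658466-60662411. Mup14 (ENSMUSG00000073830) follows at chr4:61300023-61304000, Mup15 (ENSMUSG00000096674) at chr4:61435790-61439743 and Mup17 (ENSMUSG00000096688) at chr4:61591929-61595871. The distal end of the array holds Mup20 (ENSMUSG00000078672) at chr4:62050234-62054158, Mup3 (ENSMUSG00000066154) at chr4:62083476-62087342 and Mup21 (ENSMUSG00000066153) at chr4:62147932-62150863. Mup20 is the gene of darcin, the male pheromone protein.

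How far the genes can be told apart depends on their sequence. Mup1, Mup7, Mup11, Mup14, Mup15 and Mup17 matched each other at 98.34% to 99.45% of coding bases in GENCODE M21, 3 to 9 bases apart. Mup3, Mup20 and Mup21 matched those 6 at only 83.24% to 91.39%, and Mup3 matched Mup21 at 95.42%. The 60 coding bases below start at coding base 212 of Mup15 and at the aligned base of the others. They were picked as the gap-free stretch that varies at the most positions (25). They thus overstate the difference over the whole coding sequence. Capitals mark bases that differ from the commonest base at that position among the 9 genes. At position 38 of the stretch g and c were tied, at 4 genes each, and c was taken as the commonest.
Mup15: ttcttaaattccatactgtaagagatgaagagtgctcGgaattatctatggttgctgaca
Mup14: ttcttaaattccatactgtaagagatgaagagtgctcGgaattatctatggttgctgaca
Mup17: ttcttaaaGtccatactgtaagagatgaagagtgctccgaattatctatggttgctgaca
Mup7: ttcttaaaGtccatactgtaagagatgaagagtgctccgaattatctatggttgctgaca
Mup1: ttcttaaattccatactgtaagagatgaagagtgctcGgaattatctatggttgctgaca
Mup11: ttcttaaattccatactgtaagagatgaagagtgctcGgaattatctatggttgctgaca
Mup20: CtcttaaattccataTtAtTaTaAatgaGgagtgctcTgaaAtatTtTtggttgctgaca
Mup3: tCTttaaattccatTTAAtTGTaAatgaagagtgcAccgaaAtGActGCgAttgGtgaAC
Mup21: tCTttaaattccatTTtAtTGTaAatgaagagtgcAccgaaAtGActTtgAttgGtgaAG
In this stretch Mup15, Mup14, Mup1 and Mup11 are letter for letter the same, as are Mup7 and Mup17. Each of these 6 has 1 capital, which for Mup15, Mup14, Mup1 and Mup11 is the tied position, while Mup20 differs at 11, Mup21 at 18 and Mup3 at 20.

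The share of 50-base windows of a transcript that occur in no other Mup gene was 0% for Mup15, 2.40% for Mup14, 4.54% for Mup1, 11.0% for Mup11, 11.6% for Mup7 and 21.9% for Mup17. It was 80.9% for Mup21, 85.1% for Mup3 and 95.3% for Mup20. The authors' unique exon reads followed this division. Over all livers 98.3% of the exon reads of Mup3, 97.4% of Mup21 and 95.6% of Mup20 were unique. Only 22.6% were unique for Mup7, 21.6% for Mup17, 14.6% for Mup14, 7.89% for Mup1, 5.78% for Mup15 and 3.78% for Mup11. The values of the central 6 are therefore uncertain as to which copy the reads came from, and both total and unique reads are given for them.

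**Figure D1:**
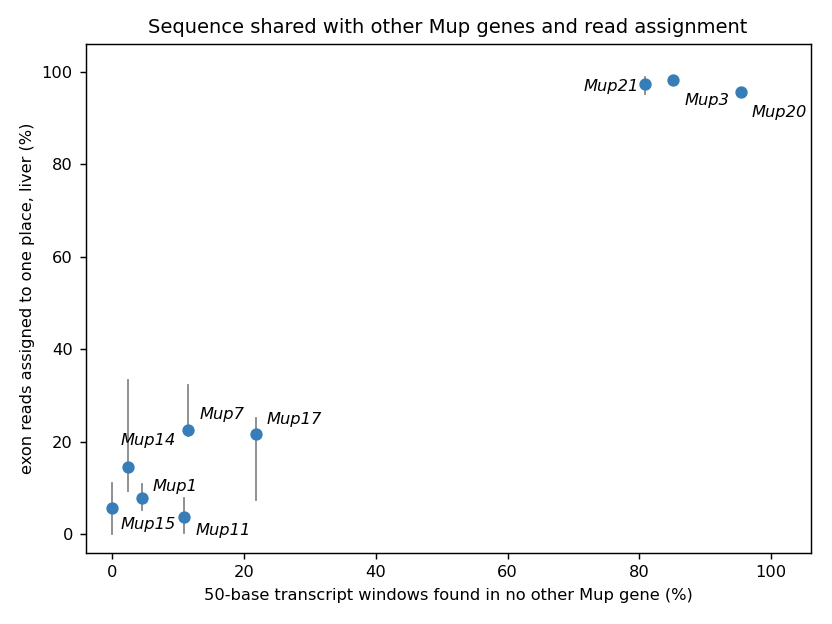
Each point is a Mup gene, with the share of its 50-base transcript windows found in no other Mup gene on the x axis (%) and the share of its liver exon reads that are unique on the y axis (%, all livers summed). Vertical lines run from the lowest to the highest liver; Mup3, Mup20 and Mup21 sit above 95% and the other 6 genes below 23%.

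RefSeq (GRCm38.p6) promoter sequences were matched for 7 of the 9 genes. The 250 bases before the start are shown for a central pair, Mup15 (chr4:61439705-61439954) and Mup17 (chr4:61595833-61596082), and for a distal pair, Mup3 (chr4:62087318-62087567) and Mup21 (chr4:62150842-62151091), all on the minus strand. Capitals mark ATCAAT, letters that a core of the ONECUT1 (HNF6) site is known to hold.
Mup15: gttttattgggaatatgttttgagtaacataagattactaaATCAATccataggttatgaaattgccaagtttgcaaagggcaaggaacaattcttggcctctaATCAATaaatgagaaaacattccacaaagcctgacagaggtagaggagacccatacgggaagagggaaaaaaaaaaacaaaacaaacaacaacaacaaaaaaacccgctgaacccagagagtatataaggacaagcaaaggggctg
Mup17: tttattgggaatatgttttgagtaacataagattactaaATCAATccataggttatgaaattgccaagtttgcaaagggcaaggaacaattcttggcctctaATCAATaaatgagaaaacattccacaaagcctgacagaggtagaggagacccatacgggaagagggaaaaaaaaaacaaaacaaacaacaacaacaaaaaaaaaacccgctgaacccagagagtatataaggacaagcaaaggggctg
Mup3: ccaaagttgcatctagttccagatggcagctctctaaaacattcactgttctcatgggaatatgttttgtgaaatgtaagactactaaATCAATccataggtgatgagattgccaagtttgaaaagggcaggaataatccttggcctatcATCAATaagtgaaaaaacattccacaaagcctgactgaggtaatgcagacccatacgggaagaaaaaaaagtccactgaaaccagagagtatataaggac
Mup21: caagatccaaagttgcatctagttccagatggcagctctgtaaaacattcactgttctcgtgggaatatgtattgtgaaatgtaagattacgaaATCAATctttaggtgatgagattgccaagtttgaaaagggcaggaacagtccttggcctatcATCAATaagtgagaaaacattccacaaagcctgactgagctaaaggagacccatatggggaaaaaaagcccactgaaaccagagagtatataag
Mup15 and Mup17 were identical over 247 aligned bases, gaps aside, and Mup3 and Mup21 matched at 93.44% of 244. All 7 promoters held ATCAAT 2 times on the strand shown, 62 or 63 bases apart, whereas 6.72% of 32851 promoters of this length held it at least 1 time on either strand. The STAT5-type letters TTCNNNGAA occurred in 0 of the 7, against 7.02% of all promoters. These are matches of letters in this window and say nothing of binding.

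The summed level of the 9 genes in the livers of mice 1065, 1073, 1141 and 1159 on soy was 4540.4, 5641, 2559 and 3714 CPM. In fish livers of mice 1067, 1123, 1124 and 1125 it was 9242, 2787, 3744 and 4788 CPM. In lard livers of mice 1100, 1102, 1130 and 1101 it was 4101, 4414, 3335 and 1999 CPM, and in control livers of mice 1095, 1120 and 1121 it was 12158, 10574 and 12091 CPM. In total reads all 12 restricted livers lay below every control liver, and fish liver 1067 was the nearest to them. In unique reads fish liver 1067, at 7105 CPM, lay above control livers 1120 and 1121, at 6435 and 7077 CPM. The means in total reads were 4114 ± 1303 CPM in soy, 5140 ± 2854 in fish and 3462 ± 1076 in lard livers (SD, n = 4 each), against 11608 ± 896 in control livers (SD, n = 3). In control livers the 9 genes took 1.16% ± 0.0896 of all exon reads (SD, n = 3). Without soy livers 1073 and 1159 the soy mean was 3549.7 CPM. Library sets, by the number in the library code, hold a control liver in 3 cases. Within these sets the log2 ratio of the summed level to that control was -2.12 to -1.34 in fish and -2.60 to -1.46 in lard livers. In soy livers it was, as a description, -2.05 to -1.11. Set 42 holds no control liver, so soy liver 1065, fish liver 1067 and lard liver 1100 are not in these ratios. Of the other numbered rows, Mup10 averaged 1722 ± 743 CPM in soy, 2704 ± 1681 in fish and 1925 ± 1067 in lard livers (SD, n = 4 each), against 5196 ± 1011 in control livers (SD, n = 3), with 31.2% of its reads unique.

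**Figure D2:**
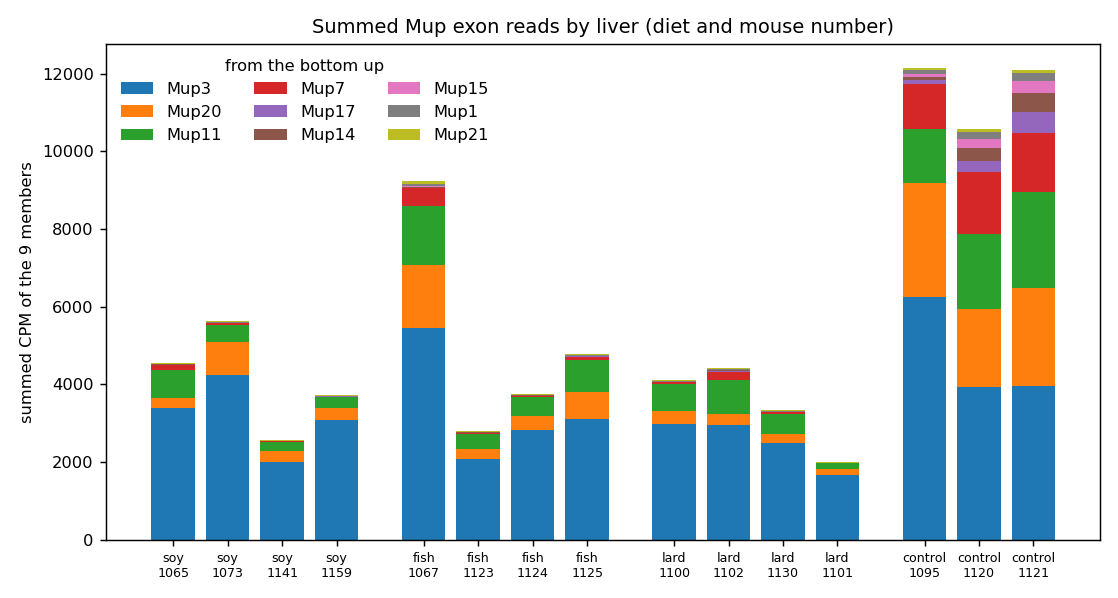
Stacked bars give the CPM of the 9 Mup genes in each liver, labelled by diet and mouse number, with Mup3 at the bottom. Every restricted liver stands below the lowest control liver at 10574 CPM, and Mup3 makes up at least 59.1% of each restricted bar and at most 51.5% of each control bar.

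The family's make-up also differed. Mup3 gave 78.0% ± 3.88 of the summed reads in soy, 68.6% ± 7.97 in fish and 74.2% ± 6.94 in lard livers (SD, n = 4 each), against 40.5% ± 9.80 in control livers (SD, n = 3). Without soy livers 1073 and 1159 the soy share was 76.7%, an alternative chosen after seeing the data, as were the correlations below without these livers. The lowest restricted value, 59.1% in fish liver 1067, lay above the highest control value, 51.5%. Per length, on the authors' RPKM scale (reads per kilobase of exon and per 1000000 gene reads), the order of levels in control livers was Mup3 at 4056 ± 1157, Mup20 at 2456 ± 452, Mup11 at 1702 ± 469 and Mup7 at 1274 ± 212. Then came Mup17 at 303 ± 219, Mup14 at 297 ± 202, Mup15 at 202 ± 114, Mup1 at 94.8 ± 28.2 and Mup21 at 88.4 ± 12.9 RPKM (SD, n = 3). Neighbours in this order lay within their summed SDs, apart from Mup7 and Mup17. In soy livers Mup3 at 2785 ± 836 and Mup15 at 1.21 ± 1.47 RPKM formed the ends of the order (SD, n = 4).

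The fish and lard groups were tested against control with edgeR's quasi-likelihood test, with Benjamini-Hochberg adjustment over all 12788 liver genes. Both tests, and the soy values, share the same 3 control livers. In fish against control 3 of the 9 genes fell, where 0.305% of all genes did, and in lard against control 4 of 9 fell, where 0.328% did. All 9 estimates were below 0 in both. Their median log2 fold change was -2.61 in fish and -3.58 in lard livers, against 0.01 and 0.00 over all genes tested. Groups that did not overlap at all were found for 6 of 9 genes in fish, where 5.19% of all genes lay wholly below control, and for 9 of 9 in lard, where 12.7% did. In soy against control, the contrast in which the genes were chosen, 5 of 9 passed the threshold where 0.766% of genes did, and 8 of 9 lay wholly below control where 11.3% did. Nothing is read from those counts, and the first was 1, Mup15, without soy livers 1073 and 1159.

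**Figure D3:**
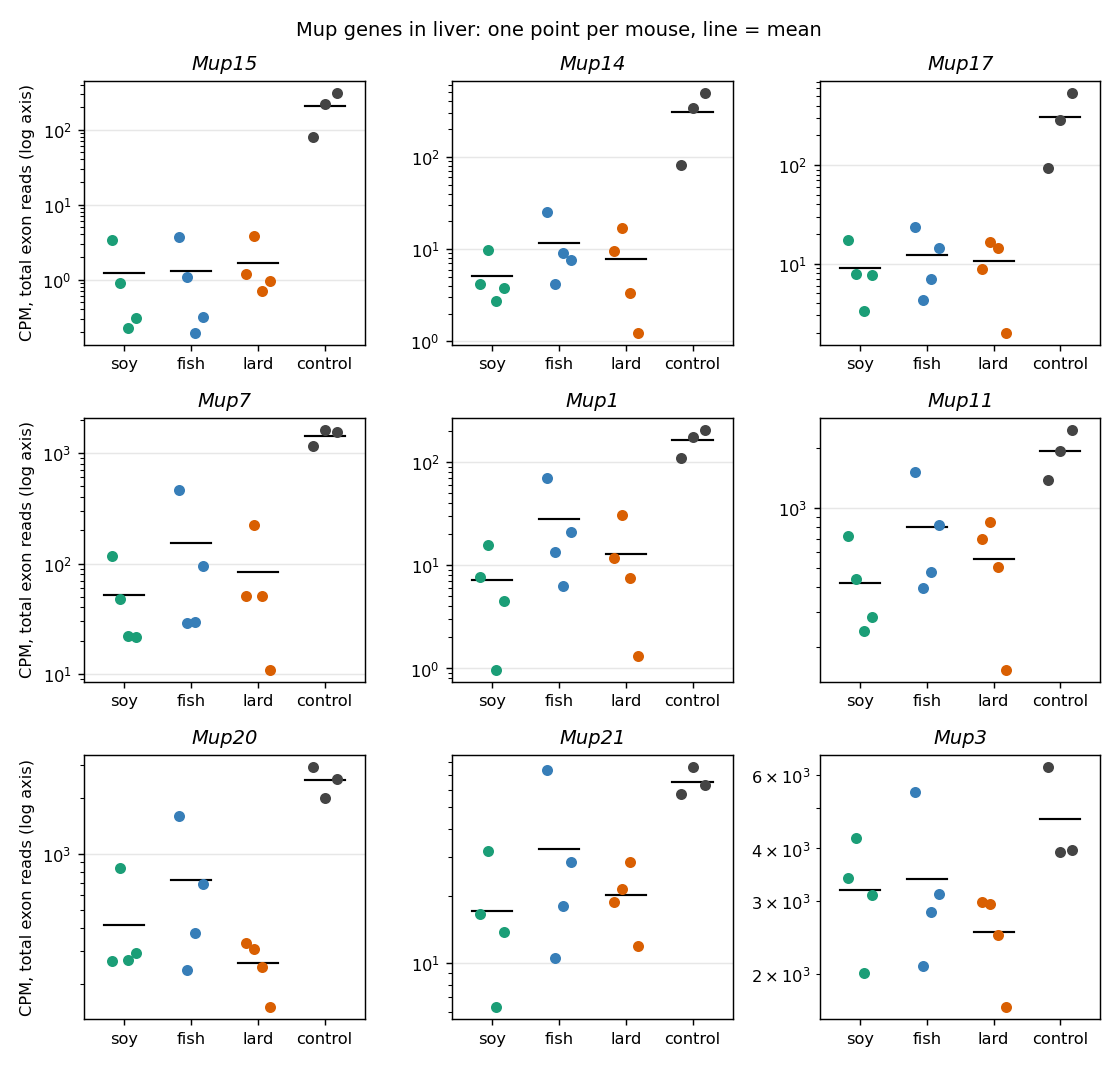
CPM of each Mup gene (log axis) by diet, with a point for each liver and a line at the mean of 4 soy, 4 fish, 4 lard or 3 control livers. Mup15, Mup14, Mup17, Mup7, Mup1 and Mup20 show no overlap of any restricted liver with a control liver, and Mup3, Mup11 and Mup21 overlap through fish liver 1067 or, for Mup3, also soy liver 1073.

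Mup15, a central copy, had the lowest estimate of the 9 in each diet. It had 3.39, 0.914, 0.224 and 0.311 CPM in soy livers, 3.69, 1.08, 0.196 and 0.313 in fish livers and 1.17, 3.85, 0.707 and 0.968 in lard livers, against 80.1, 223 and 308 CPM in control livers. The highest restricted liver was thus far below the lowest control liver. Its log2 fold change was -7.37 ± 0.87 in fish (SE, adjusted p = 0.00123, edgeR) and -6.84 ± 0.85 in lard (adjusted p = 0.00287, edgeR), and the soy estimate was -7.17 ± 0.86. These rest on 3 to 71 exon reads per restricted liver, against 1130 to 4807 per control liver. Its unique reads numbered 0 to 4 per restricted liver, against 66, 194 and 272 in the control livers. In unique reads alone Mup15 passed the filter on low counts only through the control livers, so no p is given for that fit. Its estimates there were -7.51 ± 0.68 in fish and -6.75 ± 0.66 in lard (SE).

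Mup14, another central copy, had 4.2, 9.73, 2.76 and 3.80 CPM in soy livers, 25.6, 4.2, 9.14 and 7.61 in fish livers and 9.45, 17.0, 3.36 and 1.24 in lard livers, against 81.9, 339 and 493 CPM in control livers. The groups did not overlap, and control liver 1095 was the low one of its group. The log2 fold change was -4.80 ± 0.81 in fish (SE, adjusted p = 0.0153, edgeR), -5.21 ± 0.83 in lard (adjusted p = 0.0115, edgeR) and, untested, -5.74 ± 0.85 in soy livers. Mup17, a further central copy, had 17.2, 7.90, 3.28 and 7.72 CPM in soy livers, 23.4, 4.31, 6.99 and 14.5 in fish livers and 8.88, 16.7, 14.6 and 2.00 in lard livers, against 93.3, 288 and 536 CPM in control livers. Again no restricted liver reached a control liver, and control liver 1095 was the lowest control. Mup17 changed by -4.70 ± 0.75 in fish (SE, adjusted p = 0.0101, edgeR) and -4.80 ± 0.76 in lard (adjusted p = 0.0114, edgeR), with a soy estimate of -4.95 ± 0.76. In unique reads alone Mup14 stood at -4.21 ± 0.61 in fish and -5.38 ± 0.68 in lard, and Mup17 at -5.83 ± 0.69 in fish and -5.80 ± 0.70 in lard, with adjusted p from 0.000807 to 0.00466 (edgeR).

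The calls on these 3 genes did not depend equally on single libraries. Mup15 passed in fish and in lard whichever of the 15 livers was left out. In fish, Mup14 missed the threshold without fish liver 1123, 1124 or 1125 or without control liver 1120 or 1121 (adjusted p up to 0.0811, edgeR), and Mup17 missed it without fish liver 1124 or control liver 1121 (adjusted p up to 0.0715, edgeR). In lard, both missed it without lard liver 1100 or control liver 1121 (adjusted p up to 0.0646 for Mup14 and 0.0665 for Mup17, edgeR). The estimates stayed below -4 in all of these fits. The count of called members was 1 without fish liver 1124 or control liver 1121 in fish, and 1 without lard liver 1100 or control liver 1121 in lard. Over all genes these runs called 17 and 14 lower in fish, and 6 and 10 lower in lard, against 39 and 42 in the main fits.

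Mup20 is nearly free of shared reads. It had 265, 837, 269 and 292 CPM in soy livers, 1606, 237, 376 and 690.4 in fish livers and 333, 306, 247 and 150.4 in lard livers, against 2920.3, 2008 and 2519 CPM in control livers. The 4 lard livers sat close together and the fish livers were spread widely, and no restricted liver reached a control liver. Mup20 fell in lard, with a log2 fold change of -3.15 ± 0.57 (SE, adjusted p = 0.0236, edgeR). The fish estimate of -1.81 ± 0.55 did not pass (adjusted p = 0.292, edgeR), and the soy estimate was -2.39 ± 0.56. The lard call was lost without any 1 of the 4 lard or 3 control livers (adjusted p up to 0.0970, edgeR).

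Mup7 and Mup1, both central, did not pass in fish or lard although their groups did not overlap. Mup7 had 116, 48.2, 22.2 and 21.7 CPM in soy livers, 464, 28.8, 29.8 and 95.6 in fish livers and 50.3, 221, 50.9 and 10.9 in lard livers, against 1161, 1609 and 1532 CPM in control livers. Its estimates were -3.28 ± 0.99 in fish (SE, adjusted p = 0.278, edgeR) and -4.02 ± 1.02 in lard (adjusted p = 0.102, edgeR), with -4.66 ± 1.05 in soy. Mup1 had 7.63, 15.7, 0.970 and 4.55 CPM in soy livers, 71.2, 13.5, 6.27 and 21.2 in fish livers and 11.8, 30.6, 7.51 and 1.31 in lard livers, against 109.6, 176 and 205 CPM in control livers. Restricted livers varied widely for both genes, with fish liver 1067 the highest. Mup1 estimates were -2.61 ± 0.87 in fish (SE, adjusted p = 0.341, edgeR) and -3.58 ± 0.91 in lard (adjusted p = 0.0987, edgeR), with -4.32 ± 0.94 in soy. In unique reads alone Mup1 passed in lard at -3.73 ± 0.73 (adjusted p = 0.0350, edgeR) and stood at -2.26 ± 0.65 in fish, and Mup7 stood at -3.10 ± 0.88 in fish and -3.75 ± 0.91 in lard.

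Mup11, Mup21 and Mup3 differed least between diets, and none passed in fish or lard. Mup11 had 719, 441, 242 and 282 CPM in soy livers, 1512, 397, 478 and 823 in fish livers and 697, 855, 504 and 153 in lard livers, against 1392, 1934 and 2466 CPM in control livers. Fish liver 1067 lay within the control range. The estimates were -1.32 ± 0.53 in fish (SE, adjusted p = 0.458, edgeR), -1.72 ± 0.54 in lard (adjusted p = 0.205, edgeR) and -2.07 ± 0.54 in soy livers. In unique reads alone Mup11 stood at -2.73 ± 1.2 in fish and -1.98 ± 1.17 in lard. Mup21 had 16.6, 31.7, 6.35 and 13.7 CPM in soy livers, 73.4, 10.5, 18 and 28.4 in fish livers and 18.7, 21.4, 28.5 and 12 in lard livers, against 57.2, 75.6 and 62.7 CPM in control livers. Here too fish liver 1067 lay among the controls, and the other 11 restricted livers below them. Mup21 estimates were -1.06 ± 0.55 in fish (SE, adjusted p = 0.638, edgeR), -1.61 ± 0.56 in lard (adjusted p = 0.261, edgeR) and -1.76 ± 0.56 in soy livers.

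Mup3, whose reads are nearly all its own, had 3391, 4249, 2012 and 3089 CPM in soy livers, 5463, 2091, 2819.6 and 3106 in fish livers and 2970.2, 2943, 2479 and 1667 in lard livers, against 6263, 3921 and 3968 CPM in control livers. Only soy liver 1073 and fish liver 1067 overlapped the controls. The log2 estimates were -0.51 ± 0.32 in fish (SE, adjusted p = 0.743, edgeR), -0.80 ± 0.32 in lard (adjusted p = 0.377, edgeR) and -0.39 ± 0.32 in soy livers. Mean levels of Mup3 were 67.5% of control in soy, 71.4% in fish and 53.3% in lard livers, whereas those of Mup15 were 0.594% of control in soy, 0.648% in fish and 0.822% in lard livers. That the fall differs between the members was not tested.

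**Figure D4:**
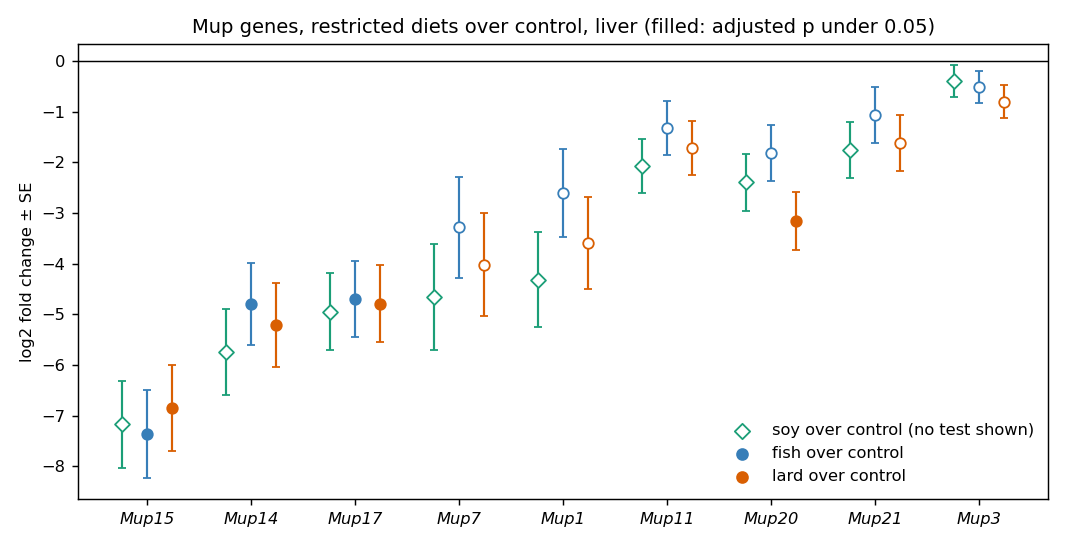
Log2 fold change ± SE of each Mup gene for soy, fish and lard over control livers (edgeR, all diets in one fit), with filled points for fish or lard estimates at an adjusted p under 0.05 and open diamonds for the untested soy estimates. Every estimate lies below 0, from -7.37 for Mup15 in fish to -0.39 for Mup3 in soy.

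Among the restricted diets no member passed. These contrasts share livers with each other. In fish against soy 0 of 9 genes passed, where 0.0938% of genes did in either direction and 0.0235% were lower, with log2 estimates from -0.19 to 1.71 and a lowest adjusted p of 0.233 (edgeR). No gene of the 9 lay wholly below soy in fish, where 0.774% of genes did. In lard against soy 0 of 9 and 0% of genes passed, with estimates from -0.76 to 0.73 (lowest adjusted p = 0.435, edgeR), and 0 of 9 lay wholly below soy, where 2.24% did. In fish against lard 0 of 9 passed, where 0.203% of genes did in either direction and 0.133% were lower, with estimates from -0.52 to 1.35 (lowest adjusted p = 0.404, edgeR), and 0 of 9 lay wholly below lard, where 1.49% did. The unadjusted p was under 0.05 for 2959 genes in fish against soy, 2212 in lard against soy and 1276 in fish against lard. The DESeq2 Wald test and limma-voom also called 0 members. Of all 12788 genes the DESeq2 Wald test called 182 higher and 631 lower in fish against soy. It called 30 and 121 in lard against soy, and 65 and 99 in fish against lard. For limma-voom the calls were 8 and 4 in fish against soy, 0 and 0 in lard against soy and 11 and 19 in fish against lard. Of the fish estimates 7 of 9 lay above soy and 8 of 9 above lard, and fish liver 1067 was the highest fish liver for all 9 genes. A missed threshold does not show that the fat source made no difference.

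The members varied together across livers beyond the diet means. Over the 15 livers the Pearson correlations of log2 CPM between members ranged from 0.58 for Mup3 with Mup15 to 0.95 for Mup7 with Mup11. After each diet's mean was taken out they ranged from 0.31 for Mup15 with Mup20 to 0.94 for Mup7 with Mup11. The central 6 share reads, which enters their correlations. Mup3 and Mup20, which share few reads, stood at 0.86 both before and after centring. Without soy livers 1073 and 1159 the uncentred values ranged from 0.65 for Mup3 with Mup15 to 0.96 for Mup1 with Mup11. These are descriptions over livers that share diets and library depth.

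The non-Mup genes with the pattern most like the summed Mup level were sought among 9158 genes with a liver mean of 5 CPM or more. The 10 with the highest Pearson correlation of log2 CPM over 15 livers were Serpina1e, C6, C9, Cyp7b1, Alas2, Agpat2, Zfp706, Prkcz, 1600014C10Rik and Cyp4a12b, from 0.91 to 0.84. Of these 10, 5 encode a serpin (Serpina1e), terminal complement components (C6, C9), an oxysterol hydroxylase (Cyp7b1) and a fatty acid hydroxylase (Cyp4a12b) and are on the list of genes known as male-biased in mouse liver. Serpina1e had 32.6 ± 14.8 CPM in soy, 180 ± 226 in fish and 40.4 ± 15.9 in lard livers (SD, n = 4 each), against 244 ± 58.4 in control livers (SD, n = 3), and the diet-centred correlation was 0.94. Over the 10 genes the diet-centred values ran from 0.60 for Agpat2 to 0.94, with 0.61 for C9 and 0.67 for Prkcz, and those without soy livers 1073 and 1159 from 0.85 to 0.93. Among the lowest correlations were those of Cux2 at -0.84, Gstt3 at -0.84, Fmo2 at -0.86 and Slc22a27 at -0.87, of which Cux2, Fmo2 and Slc22a27 are on the female-biased list. Alas2, the erythroid haem synthesis enzyme, is on the erythroid marker list, of which 5 genes were tested and 0 passed against control by edgeR. The median log2 fold change of those 5 was -0.06 in fish and 0.76 in lard against control, and their part in the Mup results was not tested. The 6 listed erythroid genes summed to 378 to 954 CPM in soy, 428 to 874 in fish, 369 to 2296 in lard and 496 to 707 in control livers, with lard liver 1130 the highest. The red cell anion exchanger Slc4a1 had 0 reads in soy liver 1073 and lard livers 1100 and 1101. Over the 21 male-biased genes compared, the median correlation was 0.81, over the 19 female-biased genes it was -0.55, and over all genes it was 0.07. Centred on diet means these medians were 0.70 for the male-biased, -0.39 for the female-biased and -0.09 for all genes. Without soy livers 1073 and 1159 they were 0.83 for the male-biased, -0.66 for the female-biased and 0.10 for all genes. The uncentred values include the soy and control livers in which the members were chosen, so they are a description.

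The list of male-biased liver genes holds no Mup gene and had 25 genes tested. In fish against control 1 of them fell and 0 rose, and in lard 3 fell and 0 rose, where 0.305% of all genes fell in fish and 0.328% in lard. The median log2 fold change was -0.59 in fish and -1.05 in lard. Ugt2b38, a glucuronosyltransferase of which 75.1% of reads were unique, had 0.517 ± 0.393 CPM in fish livers against 4.38 ± 3.09 in control livers, and fell by 3.08 ± 0.63 on the log2 scale (SE, adjusted p = 0.048, edgeR). In lard, Ugt2b38 fell by 3.63 ± 0.68 (adjusted p = 0.028, edgeR), the complement gene C9 by 1.21 ± 0.21 (adjusted p = 0.018, edgeR) and C8a by 1.70 ± 0.35 (adjusted p = 0.047, edgeR). The fish count was 0 without any 1 of the fish, lard or control livers and 2 without soy liver 1141. Of all genes 39 fell in fish in the main fit and 51 without soy liver 1141. That number was 51 without control liver 1095 and 14 without control liver 1121. The lard count of the list was 0 without control liver 1095 or 1121 or lard liver 1100 or 1101, and 5 without fish liver 1067 or lard liver 1102. Of all genes 42 fell in lard in the main fit. Without control liver 1095 that number was 30, without control liver 1121 it was 10 and without lard liver 1100 it was 6. Without fish liver 1067 it was 38 and without lard liver 1102 it was 29.

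The female-biased list had 24 genes tested. Of these 3 rose in fish and 5 in lard, none fell in either, where 0.0782% of all genes rose in fish and 0.18% in lard. The median log2 fold change was 0.92 in fish and 1.36 in lard. Cyp2b13, a cytochrome P450, had 180 ± 154 CPM in fish and 128 ± 72.2 in lard livers (SD, n = 4 each), against 0.977 ± 0.749 in control livers (SD, n = 3). Its log2 fold change was 7.48 ± 1.16 in fish and 7.14 ± 1.15 in lard (SE), with adjusted p of 0.009 in fish and 0.011 in lard (edgeR). The sulfotransferase Sult2a7 rose by 4.23 ± 0.65 in fish (adjusted p = 0.008, edgeR), and Fmo2 by 2.03 ± 0.38 in lard (adjusted p = 0.028, edgeR). The fish count was 0 without control liver 1120 or 1121, and 2 without control liver 1095 or fish liver 1123 or 1124. Of all genes 10 rose in fish in the main fit, 2 without control liver 1120 and 1 without 1121. That number was 14 without control liver 1095 and 5 without fish liver 1123 or 1124. In lard, leaving out control liver 1121 gave 0 genes of the list and leaving out control liver 1120 gave 1. Leaving out control liver 1095 or lard liver 1100 or 1101 gave 2, and leaving out lard liver 1130 or soy liver 1065 gave 3. Of all genes 23 rose in lard in the main fit. Without control liver 1121 that number was 3, without 1120 it was 7 and without 1095 it was 9. Without lard liver 1100 it was 6, without lard liver 1130 it was 16 and without soy liver 1065 it was 18.

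No gene of the growth hormone signalling list (12 tested), the IGF list (6), the list of hepatocyte transcription regulators (27) or the list of other lipocalins (9) passed in fish or lard against control by edgeR. The median log2 fold changes were 0.02 in fish and -0.10 in lard for growth hormone signalling, 0.11 in fish and 0.22 in lard for the IGF list, -0.06 in fish and -0.04 in lard for the regulators and -0.35 in fish and -0.02 in lard for the lipocalins. Fgf21, a hepatic hormone of fasting, had 1.06 ± 0.509 CPM in fish livers (SD, n = 4) against 5.18 ± 1.34 in control livers (SD, n = 3). Its fish estimate of -2.28 ± 0.48 did not pass (SE, adjusted p = 0.0562, edgeR) but passed in 9 of 25 alternatives, the DESeq2 Wald test among them (adjusted p from 0.000718 to 0.170 over all 25). In lard it stood at -0.94 ± 0.45. Stat5a, a transducer of growth hormone signals, stood at -0.47 ± 0.22 in fish and -0.57 ± 0.22 in lard. Cish, a feedback inhibitor of that signal, stood at 1.31 ± 0.60 in lard. Of the IGF-binding proteins, Igfbp1 stood at 0.87 ± 0.44 in fish and 1.84 ± 0.46 in lard, and Igfbp2 at 1.01 ± 0.34 in fish. Igf1 itself stood at 0.41 ± 0.15 in lard. Bcl6, a repressor that is male-biased in mouse liver, stood at -1.31 ± 0.50 in fish and -1.76 ± 0.51 in lard, while Trim24 stood at 0.70 ± 0.20 in fish and Tox at 1.03 ± 0.35 in lard. The lipocalin Orm1, an acute-phase protein, stood at -0.78 ± 0.32 in fish, and Lcn2, another, at -0.85 ± 0.50 in fish and -1.16 ± 0.52 in lard. Apom, an apolipoprotein of the family, stood at 0.42 ± 0.22 in lard. The genes beside the array did not pass either. Outside the numbered Mup rows and within 1 Mb of either end, 22 genes were tested, and by edgeR 0 passed in any of the 6 liver contrasts. Against control their estimates ran from -0.85 to 0.76 in fish, with a median of 0.08, and from -0.80 to 0.71 in lard, with a median of -0.0043. The 1 tested gene inside the span that is no Mup gene, Gm21286, stood at -1.52 ± 0.47 in fish and -0.69 ± 0.46 in lard (SE, adjusted p = 0.294 and 0.727, edgeR). It did not pass and was named after its values were seen.

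Muscle held few Mup reads. The 9 genes summed to 15.1, 12.7 and 8.39 CPM in soy muscles of mice 1065, 1073 and 1141, to 24.4, 17.1 and 20.2 in fish muscles of mice 1067, 1123 and 1124 and to 14.6, 18.2, 12.4 and 13.1 in lard muscles of mice 1100, 1102, 1130 and 1101. Control muscles of mice 1071, 1095, 1120 and 1121 had 18.3, 16.3, 9.69 and 9.84 CPM. The diets overlapped, apart from the lowest fish value lying above all soy values. The means were 12.1 ± 3.42 in soy (SD, n = 3), 20.6 ± 3.69 in fish (SD, n = 3) and 14.6 ± 2.60 in lard (SD, n = 4) against 13.5 ± 4.44 CPM in control muscles (SD, n = 4), or 13.1 without control muscles 1071 and 1120, also chosen after seeing the data. Mup3 gave 48 to 247 reads per muscle, Mup20 19 to 71, Mup11 3 to 74 and Mup7 14 to 40. Mup15 gave at most 18 and Mup21 at most 3.

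Of the 9 genes 5 passed the filter on low counts in muscle, namely Mup3, Mup7, Mup11, Mup14 and Mup20. By edgeR none passed in soy, fish or lard against control or in fish against lard, where 0% of 13104 genes did in 3 of these contrasts and 0.00763% in fish against control. The unadjusted p was under 0.05 for 2285 genes in soy, 2409 in fish and 2263 in lard against control, and for 541 in fish against lard. Mup7 lay wholly below control in soy muscles, at 0.876, 1.08 and 1.04 CPM against 1.11, 1.54, 1.41 and 1.52 CPM, as did 3.29% of genes. No other member tested lay wholly below in these contrasts, where 4.99% of genes did in fish against control, 4.65% in lard against control and 1.63% in fish against lard. The highest estimate was that of Mup11 in fish against control, with 4.54, 2.18 and 4.37 CPM in fish muscles against 1.5, 1.34, 0.566 and 0.693 CPM in control muscles. Its log2 fold change was 1.77 ± 0.53 (SE, adjusted p = 0.149, edgeR). limma-voom also called 0 members, and the DESeq2 Wald test called 1, Mup11, in fish against control. Over all runs the genes called in that contrast numbered from 0 to 395. Only 5.12% of the Mup11 reads in muscle were unique. The estimates without control muscles 1071 and 1120 likewise gave 0 calls.

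In the 13 mice with both tissues, the muscle sum was 0.0814% to 0.655% of the liver sum, with a median of 0.333%. The 9 hepatocyte markers were also read in every muscle, at 185 to 616 CPM or 0.128% to 0.521% of the same mouse's liver level, with a median of 0.243%. The Mup ratio was below the hepatocyte ratio in all 3 control mice and in fish mouse 1067, and above it in the other 9 mice. Mup3 made up 33.9% to 65.3% of the summed Mup reads in muscle. What part liver RNA has in the muscle reads was not tested.

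**Figure D5:**
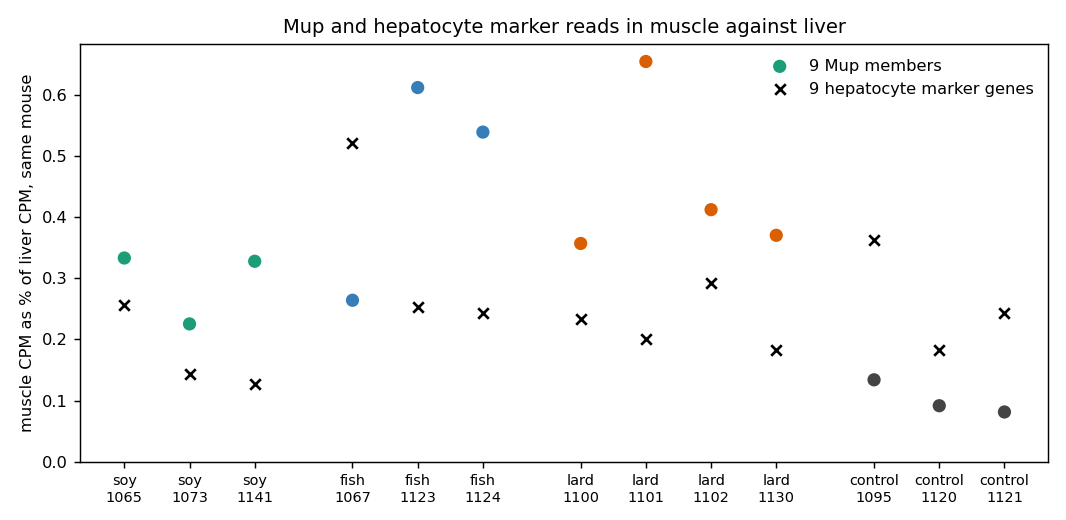
For each mouse with both libraries, points give the summed CPM of the 9 Mup genes in muscle as a percent of that in liver, coloured by diet, and crosses give the same for 9 hepatocyte marker genes. Mup points range from 0.0814% in a control mouse to 0.655% in a lard mouse, and crosses from 0.128% to 0.521%.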

How the data were processed

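Libraries of Trizol-extracted RNA were made with a TruSeq kit, per the labels' protocols. The deposited tables hold, per the file headers, total and unique exon read counts, total gene read counts and the authors' RPKM. The submitters' processing notes name FastQC and GRCm38. The aligner, counter, annotation release, read length and strand handling were not given in the sources used here. A library in several tables had equal values in each (0 of 145 column comparisons differed). The submitters left out 1 control liver and 1 fish muscle, and soy mouse 1159 has no muscle library among those used here.

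Libraries were grouped by diet and tissue from the labels, and each is a separate mouse within its tissue. CPM is total exon reads per 1000000 exon reads. Counts were tested in R 4.3.3 with edgeR 4.0.16: filterByExpr at a minimum count of 10, TMM, the quasi-likelihood F test with every diet of a tissue fitted jointly, Benjamini-Hochberg adjustment over all genes and a threshold of 0.05. SE is the size of the log2 fold change over the square root of F. The procedure was tested on simulated data. limma 3.58.1 and DESeq2 1.42.0 were alternatives. For correlations, 2 was added to the counts before the log2. Symbols from GENCODE M21 matched 36345 of 38124 identifiers. Coding windows came from its transcripts and promoters from RefSeq. The members and lists were chosen with earlier results of these data known. All 9 members are named. From each list the text names up to 3 called genes, lowest p first, or 1 or 2 uncalled ones as values; 1 gene that this rule names is not reported here.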

Additional observations from a re-analysis of the deposited data

Results flagged for a closer look

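In groups of 4 libraries, a value was singled out when its gap to the nearest other library, over the range of the group, passed Dixon's critical value. Of 50 groups examined 4 were singled out, and chance does so in about 1 of 20. Mup7 in fish liver 1067 had 464 CPM, and the nearest fish liver had 95.6 CPM. Mup20 in soy liver 1073 had 837 CPM, and the nearest soy liver had 292 CPM. Mup15 in lard liver 1102 had 3.85 CPM, and the nearest lard liver had 1.17 CPM. Mup15 in lard muscle 1101 had 1.1 CPM, and the nearest lard muscle had 0.18 CPM. All 3 liver values lay below every control liver.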

How the results depend on the processing

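No direction of a member in liver fish or lard against control turned in any alternative run, and the cause of the shifts below was not tested. The count of Mup genes past the threshold ranged on leaving out single livers from 1 to 3 in fish against control (main count 3) and from 1 to 4 in lard against control (main count 4). In soy against control, where the members were chosen and nothing is read from the count, it ranged from 3 to 7 (main count 5). It was 7 in lard against control when only the compared diets were fitted, 1 in soy against control without soy livers 1073 and 1159, and 1 in muscle fish against control with the DESeq2 Wald test. Calls over all genes moved as well. In lard against control 42 genes were lower in the main fit and 104 with only the compared diets. Over all runs the calls in either direction numbered 15 to 165 in fish, 12 to 274 in lard and 26 to 1625 in soy against control livers. For the male-biased genes lower in fish (main count 1), total gene reads, limma-voom, only the compared diets and the replicate block each gave 0, and the DESeq2 Wald test and the fit without soy livers 1073 and 1159 each gave 2. Of all genes 39 were lower in the main fit, 43 with total gene reads and 32 with limma-voom. With only the compared diets it was 56, with the replicate block 21 and with the DESeq2 Wald test 111. In lard (main count 3), total gene reads gave 1, the DESeq2 Wald test 8 and only the compared diets 6, where 36, 170 and 104 of all genes were lower. For the female-biased genes higher in fish (main count 3), the DESeq2 Wald test gave 7 and limma-voom 1. Of all genes 10 were higher in the main fit, 54 with the DESeq2 Wald test and 7 with limma-voom. In lard (main count 5), the DESeq2 Wald test and only the compared diets each gave 11, limma-voom 2 and the replicate block 3. There 23 of all genes were higher in the main fit, 104 with the DESeq2 Wald test and 62 with only the compared diets. It was 18 with limma-voom and 15 with the replicate block. Leaving out single livers gave 0 to 2 male-biased and 0 to 4 female-biased genes in fish, and 0 to 5 and 0 to 7 in lard. With all rows that carry a Mup symbol, the summed means were 6295 CPM in soy, 8546 in fish, 6131 in lard and 19299.7 in control livers, and 29.2 in soy, 48.6 in fish, 35 in lard and 32.9 in control muscles. With unique exon reads alone, the summed means of the 9 genes were 3582 CPM in soy, 4096 in fish, 2785 in lard and 7617 in control livers. In muscle these unique means were 8.84 CPM in soy, 14.4 in fish, 10.3 in lard and 10.5 in control. Correlated deviations above 0.1 were seen in 3 of 21 liver pairs and 3 of 19 muscle pairs of one library set number. For pairs of different numbers it was 10 of 63 in liver and 15 of 54 in muscle. This count cannot decide whether the library set had a part, which was not tested. With the library set as a replicate block, Mup counts were 3 in fish and 4 in lard against control livers, and 6 in soy, the contrast of the choice. Of all genes 21 were then lower in fish, 24 in lard and 61 in soy. Depth limits Mup15 most, with 3 to 71 exon reads in the restricted livers.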

Other observations

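Mup18, a numbered gene of the array outside the 9, had unique exon reads at levels that fell into separate ranges. In 8 livers they lay between 20.4 and 97.9 CPM, and in the other 7 between 0 and 1.35 CPM. Soy livers 1073 and 1159 had 27.7 and 22 CPM, and soy livers 1065 and 1141 had 0.143 and 0.0747 CPM. Fish livers 1123 and 1124 had 20.4 and 25.1 CPM, and fish livers 1067 and 1125 had 0.191 and 0.0521 CPM. Lard livers 1100 and 1102 had 35.3 and 46.2 CPM, and lard livers 1130 and 1101 had 0.354 and 0 CPM. Control livers 1120 and 1121 had 72.3 and 97.9 CPM, and control liver 1095 had 1.35 CPM. Each diet thus held livers of both ranges. In the 8 livers the unique share of Mup11 reads was 5.54% to 7.85% and that of Mup14 reads 9.45% to 13.8%. In the other 7 livers the share was 0.305% to 1.63% for Mup11 and 21.8% to 33.3% for Mup14. The split was seen in the data and was not tested.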
